A study of Mus musculus with 4 samples.

Results

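Expression of 10 genes of the lung vascular endothelium was followed in CD11b+Ly6g+ MDSCs recruited to the pre-metastatic niche (PMN) of the mouse lung. The genes were Cdh5, Pecam1, Cldn5, Kdr, Tek, Vwf, Emcn, Egfl7, Ramp2 and Calcrl. They were taken by symbol from a table of 54532 genes, and all 10 were found, each on 1 row. All mice were C57BL/6 animals aged 6 to 8 weeks and carried the PMN model: melanoma-conditioned medium (MCM) was injected intraperitoneally at 300 μl per mouse over 10 days, and B16F10 mouse melanoma cells entered through the tail vein on day 7. The Ctrl library came from model mice without peptide. The other 3 libraries came from model mice that received TP5, sFD17 or FR17 under the skin from day 3, each at 40 μM/kg per day, until the lungs were taken on day 10. TP5 is free thymopentin, FR17 joins the TP5 sequence to a self-assembling backbone through a linker that MMP2 cleaves, and sFD17 is built like FR17 with the pentapeptide scrambled. Each library was made from cells sorted from 10 to 12 pooled mice, and there was 1 library per group, so no difference below has a replicate check and no p-value is given.

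Endothelial cells line blood vessels and control what passes between blood and tissue. Neighbouring cells are held together by VE-cadherin at adherens junctions and by claudins at tight junctions. VEGF, angiopoietins and adrenomedullin act on endothelial receptors that set vessel growth and leakiness. Loosening of these junctions is one of the features ascribed to the pre-metastatic lung. The sort for CD11b and Ly6g selects granulocytic myeloid cells, and VE-cadherin, claudin 5 and VEGFR2 are not markers of that population.

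The libraries held from 15543071 to 19638228 counts. The TMM factors of edgeR were used for scaling. Levels are given as CPM, the counts of a gene per 1e6 of the library size multiplied by its TMM factor. Ratios between libraries carry exact 95% Clopper-Pearson intervals computed from the pair of counts, which cover counting error only, since sequenced reads without molecular identifiers are not independent molecules. A gene was called at least 2-fold lower or higher from edgeR's log2 CPM with a prior count of 2, among the 16369 genes that reached 10 counts in any library, and all 10 endothelial genes passed this filter. The sorting marker Ly6g had 73.1 CPM in Ctrl, 97.8 in TP5, 111 in sFD17 and 90.7 in FR17. Itgam, which encodes CD11b, had 381, 370, 433 and 302 CPM in the same order. Ptprc, the pan-leukocyte gene for CD45, had 2258, 2091, 2094 and 1452 CPM, so it was lowest in the FR17 library.

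Transcripts of all 10 endothelial genes were detected in every library, at a low level. Together they took 3256 counts in Ctrl, 2728 in TP5, 2743 in sFD17 and 5871 in FR17, or 0.0190%, 0.0159%, 0.0176% and 0.0299% of all counts. These shares are of unscaled counts. Under TMM the sums stood at 0.807, 1.08 and 1.33 times Ctrl in TP5, sFD17 and FR17. In the Ctrl library Cldn5 had the highest level per length, at 11.9 CPM per kilobase of exon (10.6 to 13.4). Pecam1 followed at 7.89, Calcrl at 6.63 and Cdh5 at 5.66 CPM per kilobase, and the intervals of Calcrl and Cdh5 met. Egfl7 stood at 2.55, Vwf at 2.26, Ramp2 at 2.06 and Tek at 1.78 CPM per kilobase, and each of these neighbours met the next within counting error. Kdr at 0.892 and Emcn at 0.361 CPM per kilobase were the lowest. Ptprc reached 123 CPM per kilobase in the same library, above every endothelial gene. The order was close to this in sFD17 and FR17, where Cldn5 was again first, though in sFD17 its interval met that of Pecam1. In TP5, Pecam1 was first at 8.38 CPM per kilobase and Cldn5 stood at 5.31, with an interval that met that of Calcrl above it. These RNA pools cannot tell fewer cells of a type from less RNA per cell.

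**Figure D1:**
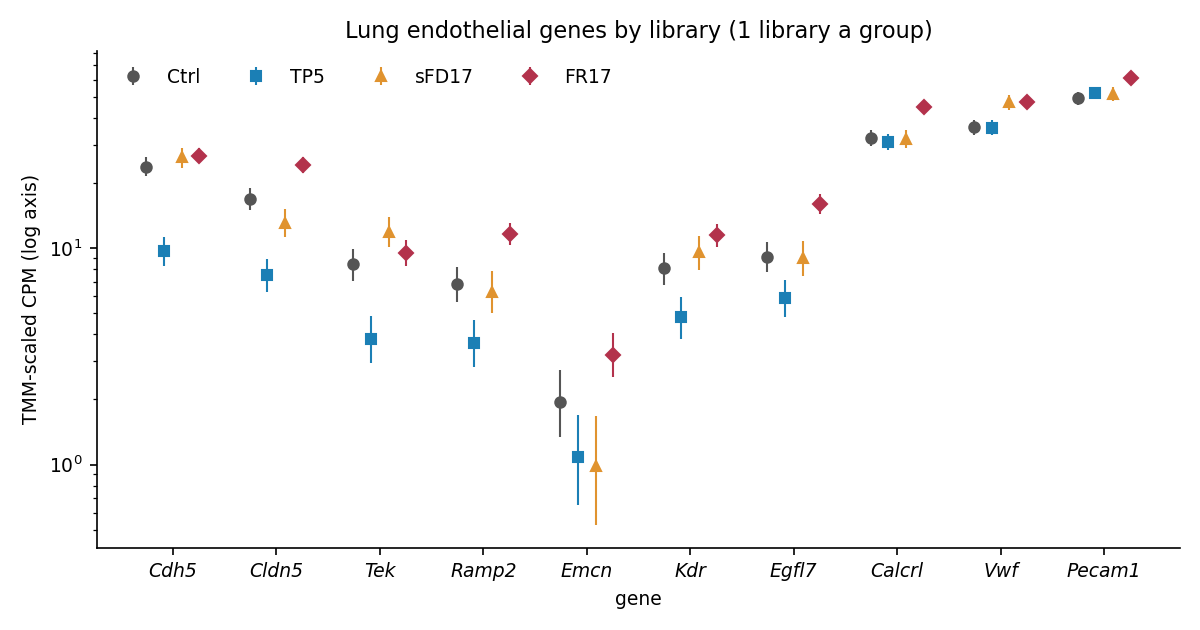
Level of each endothelial gene in the Ctrl, TP5, sFD17 and FR17 libraries, as TMM-scaled CPM on a log axis; points are single libraries and bars are exact 95% intervals for counting error. The TP5 squares lie below the other libraries for Cdh5, Cldn5, Tek, Ramp2, Kdr and Egfl7, and beside the Ctrl circles for Calcrl, Vwf and Pecam1.

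The junction genes were read first. Cdh5 (ENSMUSG00000031871, chromosome 8 from 104101625 to 104144511) encodes VE-cadherin, the adhesion protein of endothelial adherens junctions. It had 402 counts in Ctrl, 170 in TP5, 346 in sFD17 and 612 in FR17, which is 23.8, 9.69, 26.2 and 26.7 CPM. TP5 was the low library and the other 3 lay close together. The ratio to Ctrl was 0.407 in TP5 (0.338 to 0.488), 1.10 in sFD17 (0.951 to 1.28) and 1.12 in FR17 (0.986 to 1.27). Cldn5 (ENSMUSG00000041378, chromosome 16 from 18776847 to 18778262) encodes claudin 5, the main claudin of endothelial tight junctions. Its counts were 285 in Ctrl, 132 in TP5, 173 in sFD17 and 554 in FR17, or 16.9, 7.53, 13.1 and 24.1 CPM. Here the libraries were spread out, with TP5 lowest, sFD17 next and FR17 highest. Cldn5 stood at 0.446 times Ctrl in TP5 (0.360 to 0.550), 0.777 times in sFD17 (0.639 to 0.942) and 1.43 times in FR17 (1.24 to 1.66). Pecam1 (ENSMUSG00000020717, chromosome 11 from 106654217 to 106750628) encodes CD31, an adhesion molecule of endothelial contacts that platelets, neutrophils and monocytes carry as well. It had 830, 915, 680 and 1397 counts in Ctrl, TP5, sFD17 and FR17, or 49.1, 52.2, 51.5 and 60.9 CPM. The Ctrl, TP5 and sFD17 values were level within counting error, and FR17 was above Ctrl, with a ratio of 1.24 (1.14 to 1.35).

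The receptor tyrosine kinases came next. Kdr (ENSMUSG00000062960, chromosome 5 from 75932827 to 75978458) encodes VEGFR2, the main signalling receptor for VEGF. It had 136 counts in Ctrl, 84 in TP5, 126 in sFD17 and 264 in FR17, or 8.05, 4.79, 9.55 and 11.5 CPM. Its ratio to Ctrl was 0.595 in TP5 (0.448 to 0.786), 1.19 in sFD17 (0.923 to 1.52) and 1.43 in FR17 (1.16 to 1.77). Tek (ENSMUSG00000006386, chromosome 4 from 94739289 to 94874976) encodes TIE2, the receptor for angiopoietins. Its counts were 142, 67, 157 and 218 in Ctrl, TP5, sFD17 and FR17, or 8.41, 3.82, 11.9 and 9.50 CPM. Under TMM sFD17 was the highest library, but under library size alone FR17 was, at 1.34 times Ctrl against 1.22 times in sFD17. The ratio of Tek to Ctrl was 0.454 in TP5 (0.335 to 0.612), 1.42 in sFD17 (1.12 to 1.79) and 1.13 in FR17 (0.910 to 1.41).

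Calcrl and Ramp2 encode the parts of a single receptor: the calcitonin receptor-like protein binds adrenomedullin when RAMP2 accompanies it to the cell surface. Their values differed in pattern. Calcrl (ENSMUSG00000059588, chromosome 2 from 84330626 to 84425411) had 547 counts in Ctrl, 543 in TP5, 423 in sFD17 and 1027 in FR17, or 32.4, 31.0, 32.1 and 44.7 CPM. Ctrl, TP5 and sFD17 were alike within counting error, and FR17 stood at 1.38 times Ctrl (1.24 to 1.54). Ramp2 (ENSMUSG00000001240, chromosome 11 from 101246028 to 101259546) had 115, 64, 83 and 267 counts in Ctrl, TP5, sFD17 and FR17, or 6.81, 3.65, 6.29 and 11.6 CPM. TP5 was low and FR17 high, with ratios to Ctrl of 0.536 (0.388 to 0.734) and 1.71 (1.37 to 2.14), while sFD17 stood at 0.924 (0.688 to 1.24). Of the 3301 exon bases of Ramp2, 1103 also belong to Vps25 on the same strand. Vps25 itself had 1 to 7 counts per library, and how reads in the shared bases were assigned was not given in the sources used here, so the level of Ramp2 is uncertain.

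The remaining genes encode secreted or surface glycoproteins. Vwf (ENSMUSG00000001930, chromosome 6 from 125546774 to 125686679) encodes von Willebrand factor, which endothelial cells and megakaryocytes store and release for platelet adhesion. Its counts were 612 in Ctrl, 631 in TP5, 623 in sFD17 and 1090 in FR17, or 36.2, 36.0, 47.2 and 47.5 CPM. Ctrl was level with TP5, and sFD17 with FR17, except that under library size alone FR17 stood at 1.38 times sFD17. The ratio of Vwf to Ctrl was 0.993 in TP5 (0.887 to 1.11), 1.3 in sFD17 (1.16 to 1.46) and 1.31 in FR17 (1.19 to 1.45). Egfl7 (ENSMUSG00000026921, chromosome 2 from 26580014 to 26593120) encodes a secreted protein of the vessel matrix. It had 154, 103, 119 and 368 counts in Ctrl, TP5, sFD17 and FR17, or 9.12, 5.87, 9.02 and 16.0 CPM. FR17 was the high library at 1.76 times Ctrl (1.45 to 2.14), TP5 was low at 0.644 times (0.497 to 0.832), and sFD17 was level with Ctrl at 0.989 times (0.772 to 1.26). Emcn (ENSMUSG00000054690, chromosome 3 from 137341067 to 137432185) encodes endomucin, a sialomucin of capillary and venous endothelium. With 33 counts in Ctrl, 19 in TP5, 13 in sFD17 and 74 in FR17 it had the fewest reads, and its CPM were 1.95, 1.08, 0.985 and 3.22. Emcn stood at 0.554 times Ctrl in TP5 (0.298 to 1.00), 0.504 times in sFD17 (0.244 to 0.984) and 1.65 times in FR17 (1.08 to 2.57).

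Egfl7 also hosts a microRNA known from endothelium. The mature sequence from RefSeq (GRCm38.p6, chr2:26591402-26591423, plus strand) is shown because its locus lies within the exon bases counted for Egfl7, with the seed, bases 2 to 8, in capitals.
mmu-miR-126a-3p: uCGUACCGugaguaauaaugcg
The hairpin gene Mir126a overlaps 73 of the 3581 exon bases of Egfl7 on the same strand and was listed at 0 counts in every library. Libraries of mRNA are not built to capture mature microRNAs, so the values of Egfl7 say nothing on the level of miR-126. On the same strand 264 exon bases of Egfl7 are also shared with Gm20532, which had 0 counts in every library, and on the opposite strand 64 are shared with Agpat2 and 58 with Mir126b. The level of Egfl7 is therefore uncertain in the same way as that of Ramp2.

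Each peptide library was then compared with Ctrl over the 10 genes. These comparisons share the Ctrl library. In TP5, 9 of the 10 genes were lower than Ctrl by any amount, where 49.9% of all genes tested were lower. Cdh5, Cldn5 and Tek were at least 2-fold lower, 3 of 10 against a background of 4.99% of all genes, and 0 of 10 were at least 2-fold higher, against 3.20%. The log2 fold changes ran from −1.29 for Cdh5 to 0.09 for Pecam1, with a median of −0.76, where the median of all genes tested was 0.00. The genes fell into 2 sets by value. For Cdh5, Cldn5, Tek, Ramp2, Kdr and Egfl7 the interval of the ratio to Ctrl lay below 1, and for Emcn it reached 1.00. For Pecam1, Vwf and Calcrl the ratios were 1.06, 0.993 and 0.956, and the intervals spanned 1.

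In sFD17 the 10 genes were divided around Ctrl. Of these, 5 were higher than Ctrl by any amount, against 48.0% of all genes. At least 2-fold lower were 0 of 10, against 6.47% of all genes, and at least 2-fold higher also 0 of 10, against 5.32%. The median log2 fold change was 0.03, and single values ran from −0.91 for Emcn to 0.50 for Tek. Cldn5 and Emcn had intervals below 1, and Tek and Vwf above 1.

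In FR17 all 10 genes were higher than Ctrl by any amount, against 52.3% of all genes. At least 2-fold higher were 0 of 10, against 3.92% of all genes, and at least 2-fold lower 0 of 10, against 3.58%. The median log2 fold change was 0.49, with values from 0.16 for Cdh5 to 0.81 for Egfl7, where the median of all genes tested was 0.02. The intervals of Cdh5 and Tek spanned 1, and those of the other 8 genes lay above 1. The share of all genes tested with an interval that excludes 1 was not computed for any comparison, so these counts have no background. Under library size alone, without TMM, the median log2 fold change of all genes was itself 0.26 in FR17 and −0.23 in sFD17, so the sFD17 and FR17 values of single genes depend on the scaling. The median of the 10 genes in FR17 was then 0.73, with 2 of 10 at least 2-fold higher, against 6.67% of all genes.

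**Figure D2:**
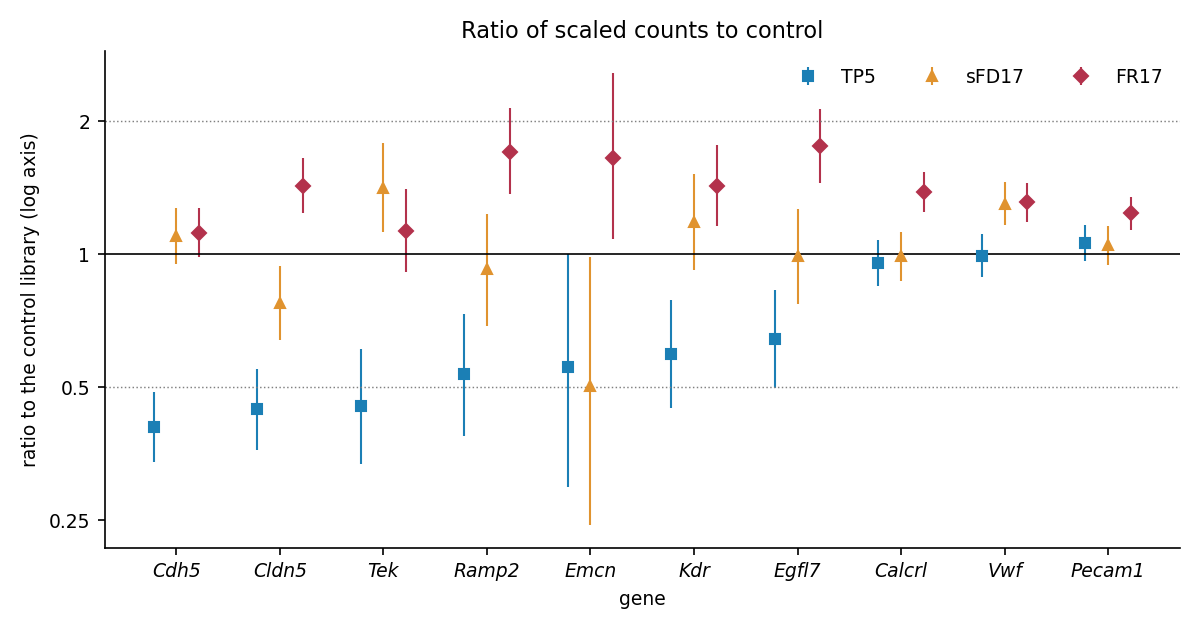
Ratio of the scaled counts of each endothelial gene to the Ctrl library in the TP5, sFD17 and FR17 libraries, on a log axis with dotted lines at 0.5 and 2; bars are exact 95% intervals for counting error. TP5 ratios run from 0.407 for Cdh5 to 1.06 for Pecam1, and all FR17 ratios lie between 1.12 and 1.76.

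The 3 peptides were compared with one another at the same dose and day, in 3 pairs. FR17, which carries the TP5 sequence on the assembling backbone, was above free TP5 for all 10 genes, against 47.8% of all genes. Of the 10, 7 were at least 2-fold higher in FR17, against 7.04% of all genes, and 0 at least 2-fold lower, against 2.88%. These 7 were Cldn5 with a ratio of 3.21 (2.65 to 3.91), Ramp2 with 3.19, Emcn with 2.98, Cdh5 with 2.75 (2.32 to 3.28), Egfl7 with 2.73, Tek with 2.49 and Kdr with 2.40. Pecam1 was 1.17 times (1.07 to 1.27), Vwf 1.32 times (1.20 to 1.46) and Calcrl 1.45 times (1.3 to 1.61) the TP5 value. The median log2 fold change of FR17 against TP5 was 1.36. The scrambled sFD17 against TP5 gave a median of 0.69, with 2 of 10 genes at least 2-fold higher, against 6.74% of all genes, and 0 lower, against 5.64%. These were Tek with a ratio of 3.11 (2.33 to 4.21) and Cdh5 with 2.71 (2.25 to 3.27), and Kdr reached 1.99 (1.5 to 2.66). Emcn, Pecam1 and Calcrl had intervals that spanned 1, the widest being that of Emcn, from 0.413 to 1.94.

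FR17 and sFD17 share the backbone and linker and differ in the order of the pentapeptide's residues. Between them 1 of 10 genes was at least 2-fold higher in FR17, against 11.3% of all genes, and 0 at least 2-fold lower, against 10.8%. That gene was Emcn, with 74 counts against 13 and a ratio of 3.27 (1.80 to 6.43). Ramp2 stood at 1.85 (1.44 to 2.40), Cldn5 at 1.84 (1.55 to 2.20), Egfl7 at 1.78 (1.44 to 2.20), Calcrl at 1.40 (1.25 to 1.57) and Pecam1 at 1.18 (1.08 to 1.3). Cdh5 at 1.02 (0.890 to 1.16), Vwf at 1.01 (0.911 to 1.11) and Kdr at 1.20 (0.971 to 1.5) had intervals that spanned 1. Tek stood at 0.798 times the sFD17 value (0.647 to 0.986) under TMM and at 1.10 times under library size alone, so its direction depended on the scaling. The median log2 fold change was 0.37, where that of all genes tested was 0.07. Under library size alone the median was 0.83, where that of all genes was 0.52, and 4 of 10 genes were at least 2-fold higher in FR17, against 25.7% of all genes.

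The proportions among the 10 genes differed most in the TP5 library. Pecam1, Vwf and Calcrl together made up 61.1% of the summed counts in Ctrl, 62.9% in sFD17 and 59.9% in FR17, and 76.6% in TP5; these 3 genes were singled out after their values were seen. The other 7 genes held 1267 counts in Ctrl, 639 in TP5, 1017 in sFD17 and 2357 in FR17. Cdh5 alone made up 12.3% of the sum in Ctrl and 6.23% in TP5. Tek made up 4.36% in Ctrl and 5.72% in sFD17.

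**Figure D3:**
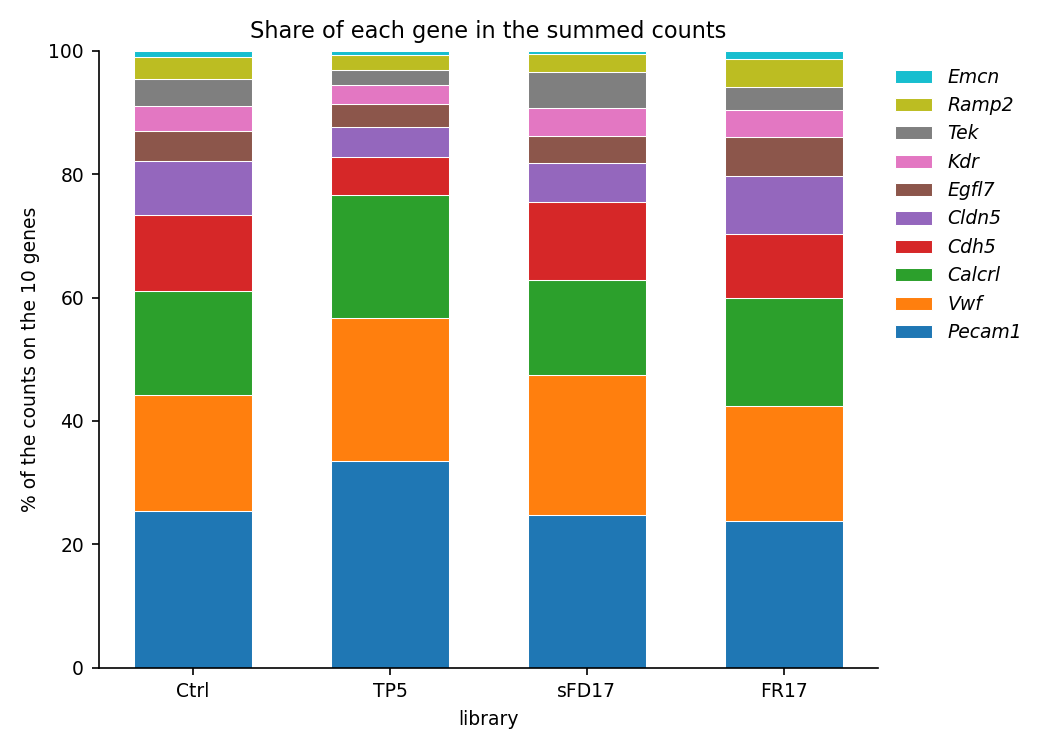
Share of each gene, in percent, in the summed counts of the 10 endothelial genes in the Ctrl, TP5, sFD17 and FR17 libraries. Pecam1, Vwf and Calcrl fill 76.6% of the TP5 bar and 59.9% to 62.9% of the other bars.

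Promoter sequence was read for the members with an entry in the RefSeq table for GRCm38.p6, which were Calcrl, Cldn5, Egfl7, Emcn, Kdr and Tek, with 8 start sites. The 250 bases before the start are shown for Cldn5, at least 2-fold lower in TP5, for Emcn, the gene with the widest intervals, and for Calcrl, level with Ctrl in TP5. For Calcrl, Emcn, Egfl7 and Kdr the start in RefSeq lies inside the gene as counted. Their windows therefore fall partly or wholly within the gene, for Calcrl with the marked site. Capitals mark AGGAAG or its reverse complement, a short form of the site of ETS factors, the family that includes the endothelial regulator Erg.
Cldn5, chr16:18776597-18776846, plus strand: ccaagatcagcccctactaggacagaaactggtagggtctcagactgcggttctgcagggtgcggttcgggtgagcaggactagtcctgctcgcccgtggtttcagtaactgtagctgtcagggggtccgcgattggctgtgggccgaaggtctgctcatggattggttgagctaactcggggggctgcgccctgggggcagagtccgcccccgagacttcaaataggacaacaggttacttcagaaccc
Emcn, chr3:137340828-137341077, plus strand: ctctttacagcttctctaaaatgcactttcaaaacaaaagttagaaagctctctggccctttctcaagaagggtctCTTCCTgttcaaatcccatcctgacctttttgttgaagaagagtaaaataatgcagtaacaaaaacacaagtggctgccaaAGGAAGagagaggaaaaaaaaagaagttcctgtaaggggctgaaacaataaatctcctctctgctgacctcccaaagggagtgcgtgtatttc
Calcrl, chr2:84425267-84425516, minus strand: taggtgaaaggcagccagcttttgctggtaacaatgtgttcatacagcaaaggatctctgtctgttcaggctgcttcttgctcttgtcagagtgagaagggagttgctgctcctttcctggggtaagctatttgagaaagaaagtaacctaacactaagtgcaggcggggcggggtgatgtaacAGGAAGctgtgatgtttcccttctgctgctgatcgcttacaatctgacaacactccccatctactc

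AGGAAG was found on either strand in 4 of the 8 windows, those of Calcrl, Emcn and 2 starts of Egfl7, and in 29.5% of 32851 windows of the same length. The form CCGGAAG, which cannot fall on the same site, was in 0 of 8 and in 6.91% of all windows. Of the other motifs searched on both strands, the letters AGATAA, a site of GATA factors, were in 0 of 8 windows, against 9.99% of all. The E-box letters CACGTG were in 0 of 8, against 6.02%, and TATAAA was also in 0 of 8, against 12.4%. The SOX letters ACAATG were in 1, that of Calcrl, against 10.7%, and the KLF letters CCACCC in 2, of Egfl7 and Kdr, against 28.1%. A match describes letters only.

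The 10 genes were set beside other genes of the endothelium. Of 24 further genes of vascular endothelium, 12 were at least 2-fold lower in TP5 and 0 higher, against the 4.99% and 3.20% of all genes, with a median log2 fold change of −0.98. The lowest by the naming rule were the transcription factor genes Sox17, with 57 counts in Ctrl and 11 in TP5 and a ratio of 0.186 (0.088 to 0.358), and Sox7 with 0.275, and the matrix gene Mmrn2 with 0.263. Not all went this way: Erg had 172 counts in Ctrl and 308 in TP5, a ratio of 1.72 (1.43 to 2.09), and was singled out after its value was seen. In sFD17 0 of the 24 were at least 2-fold lower or higher, against 6.47% and 5.32% of all genes, with a median of 0.07. In FR17 2 were at least 2-fold higher and 0 lower, against 3.92% and 3.58%, with a median of 0.22, below the 0.49 of the 10 genes. Of the 24, 18 were above Ctrl in FR17 and 6 below, the lowest at −0.79. Their summed counts in FR17 stood at 0.998 times Ctrl (0.970 to 1.03), and at 1.11 times without Cd93, the most counted.

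Genes of vessel subtypes were lower in TP5 by their medians. The capillary list shares Gpihbp1, and the arterial list Sox17, with the further genes of vascular endothelium above. The capillary list had a median of −0.63 in TP5, −0.13 in sFD17 and 0.35 in FR17, with 2, 2 and 0 of 10 genes at least 2-fold lower, against 4.99%, 6.47% and 3.58% of all genes. Ednrb, the endothelin B receptor gene, had 833 counts in Ctrl, 210 in TP5, 125 in sFD17 and 1025 in FR17. Car4, a carbonic anhydrase gene, had 784, 530, 110 and 1522. Gpihbp1, which anchors lipoprotein lipase in capillaries, had 71, 25, 53 and 107. In sFD17 Ednrb and Car4 stood at 0.192 and 0.180 times Ctrl, but Gpihbp1 at 0.955 times. Of the 10 capillary genes, 7 were below Ctrl in sFD17 and 3 above. The macrophage genes Mrc1, C1qc and Mertk stood at 0.240, 0.274 and 0.274 times Ctrl in sFD17. The arterial list had medians of −0.61, −0.21 and 0.32, with Efnb2, the gene of ephrin B2, at 0.327 times Ctrl in TP5 and 0.428 times in sFD17, and Fbln5 at 2.19 times in FR17. The venous list had medians of −0.87, −0.08 and 0.33 over 7 genes. Vcam1, the leukocyte adhesion gene, stood at 0.480 times Ctrl in TP5 and 0.271 times in sFD17, and Lepr at 0.541 and 0.249 times. Slc6a2 stood at 3.17 times in sFD17 and 3.02 times in FR17. Which cells the reads of Ednrb, Car4, Vcam1 and Lepr came from was not tested. The lymphatic list had medians of −0.86, −0.05 and 0.47 over 7 genes. Lyve1, also a gene of some lung macrophages, had 1533, 510, 282 and 2332 counts in Ctrl, TP5, sFD17 and FR17. Without Lyve1 the summed counts of the list stood at 1.07 times Ctrl in TP5 (0.923 to 1.23). Thy1, which T cells also express, had 121, 169, 107 and 499 counts in Ctrl, TP5, sFD17 and FR17, and so was not low in TP5. Flt4, the gene of VEGFR3, had 24, 13, 18 and 57 counts in Ctrl, TP5, sFD17 and FR17.

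Ligands, receptors and partners of the pathways were not uniform. The pathway lists hold some of the 10 genes themselves: Kdr, Tek, Calcrl with Ramp2, and the 3 junction genes. They also share Tie1, Ptprb and Esam with the further genes of vascular endothelium above. Tek and Tie1 are thus counted again among the genes at least 2-fold lower in TP5, and the lists are not independent. Of 6 genes of the Tie and angiopoietin pathway, 4 were at least 2-fold lower in TP5, where 4.99% of all genes were, with a list median of −1.13. In sFD17 the list was split, with 2 of 6 genes at least 2-fold lower, against 6.47% of all genes, and a median of 0.20. In FR17 the median was 0.19, with 0 of 6 at least 2-fold lower or higher, against 3.58% and 3.92% of all genes. Tie1, the sister receptor of Tek, had 202 counts in Ctrl and 89 in TP5, a ratio of 0.424 (0.327 to 0.547). Ptprb, the phosphatase that acts on TIE2, stood at 0.542 times Ctrl in TP5 and 1.55 times in sFD17. The VEGF list had medians of −0.28 in TP5, −0.13 in sFD17 and 0.41 in FR17. Vegfa, the main ligand, had 3752 counts in Ctrl and 2713 in FR17, a ratio of 0.532 (0.506 to 0.559), while Kdr stood at 1.43. The coreceptor gene Nrp2 stood at 0.432 times Ctrl in sFD17 and Vegfb at 0.529 times. In the adrenomedullin list, with 6 of 9 genes passing the filter, Ramp3 had 156 counts in Ctrl, 341 in TP5, 145 in sFD17 and 274 in FR17. Ramp3, an alternative partner of the Calcrl protein, was thus 2.10 times Ctrl in TP5 (1.74 to 2.56), where Ramp2 stood at 0.536 times. The medians of that list were 0.28, −0.07 and 0.61 in TP5, sFD17 and FR17. Among 13 junction genes, 3 were at least 2-fold lower in TP5, against 4.99% of all genes: Cdh5 and Cldn5, already counted above, and Ocln, with list medians of −0.65, −0.05 and 0.17. Ocln, the occludin gene, had 55, 25, 12 and 111 counts in Ctrl, TP5, sFD17 and FR17.

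The genes with the profile most like the median of the 10 over the 4 libraries were sought among the 9791 genes that reached 50 counts in each library. Likeness was the root mean square distance of the centred log2 CPM, with n = 4 points that share their scaling. The nearest were Sparc, the gene of a matrix glycoprotein, with a distance of 0.073, and Cd34, a surface sialomucin of endothelium and progenitors, with 0.074. Sod3, Arhgap29, Cavin2, Lamb2, Tbx2, Cavin1, Gm4617 and Sema3f followed, out to a distance of 0.092. Cavin1 and Cavin2 encode caveola proteins, Lamb2 a laminin chain and Sod3 an extracellular superoxide dismutase. Sparc had 817 counts in Ctrl, 507 in TP5, 609 in sFD17 and 1433 in FR17. Cd34 had 169, 111, 129 and 314. The distances of the members themselves from their median profile ran from 0.149 for Kdr to 0.414 for Emcn. The genes above were picked as the nearest of 9791, so their smaller distances follow from the search.

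Markers of other cell types differed between the libraries as well. Fibroblast genes had medians of −0.90 in TP5, −0.51 in sFD17 and 0.04 in FR17. In the same order, 4, 3 and 0 of 12 were at least 2-fold lower (4.99%, 6.47% and 3.58% of all genes). The summed counts of this list stood at 0.552, 0.825 and 1.06 times Ctrl under TMM. As shares of unscaled counts they ran from 0.0178% in TP5 to 0.0389% in FR17, with no marker at 0. The mural list of pericyte and smooth muscle genes had medians of −0.30, 0.01 and 0.24 over 9 genes. Red blood cell genes had medians of −1.25, −0.61 and 0.63 over 6 genes. Airway epithelial genes went the other way in TP5, with medians of 0.61, 1.06 and 0.34 over 9 genes, and alveolar epithelial genes had 0.32, 0.29 and 0.13 over 12. Macrophage genes had medians of −0.60, −1.5 and 0.23 over 12 genes, and so were lowest in sFD17, where the endothelial median was 0.03; their share of all counts ran from 0.318% in sFD17 to 1.44% in FR17. T, B and NK cell genes had medians of 0.26, 0.11 and 1.34 over 12 genes, with a share of 0.0113% in sFD17 to 0.0266% in FR17. Neutrophil genes had medians of 0.16, 0.45 and −0.05 and made up from 3.30% to 3.78% of all counts. Of the 7 melanoma markers, 2 passed the filter, Mitf and Pmel, and Tyr and Tyrp1 had 0 counts in every library. Platelet genes, of which 9 of 10 passed, had medians of 0.08 in TP5, 0.30 in sFD17 and 0.51 in FR17. Their summed counts were 0.596, 0.554 and 1.25 times Ctrl with Pf4 and 1.23, 1.56 and 1.25 times without it, and Gp1bb had 0 counts in every library. The part of any of these cell types in the values of the endothelial genes was not tested.

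**Figure D4:**
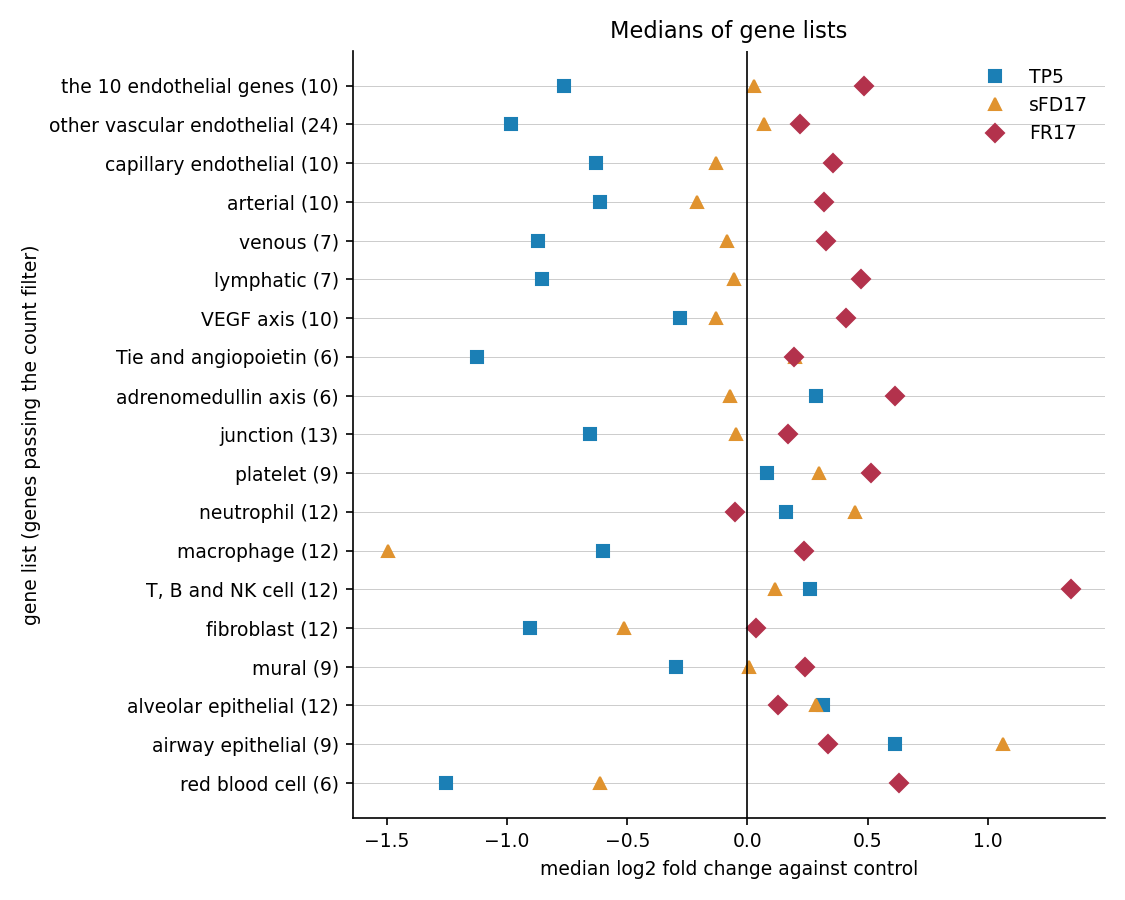
Median log2 fold change against the Ctrl library of the 10 endothelial genes and 18 other gene lists in the TP5, sFD17 and FR17 libraries; the number of genes behind each median stands in parentheses. The endothelial medians are −0.76, 0.03 and 0.49 in that order, and the macrophage median is lowest in sFD17, at −1.5.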

How the data were processed

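The mRNA of CD11b+Ly6g+ cells sorted from PMN lungs was measured in 4 libraries, 1 per group. The paper names TRIzol for the extraction of RNA and the NEBNext Ultra Directional kit for the libraries. Raw counts of reads for each gene were deposited, not normalized, beside gene coordinates and exon lengths. The submitters' processing notes name HISAT2 2.0.5, StringTie 1.3.3b, featureCounts 1.5.0-p3 and edgeR 3.18.1 and the build GRCm38.p6. Whether counting used the strand was not given in the sources used here. Columns were matched to samples by group name.

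The file lists 54532 genes. For 100 symbols listed repeatedly, the most counted row was kept. TMM factors from edgeR 4.0.16 (R 4.3.3) were 0.986 for Ctrl, 1.02 for TP5, 0.849 for sFD17 and 1.17 for FR17. Ratios of scaled counts and Clopper-Pearson intervals were computed with scipy 1.17.1, and figures with matplotlib 3.10.9. Levels per kilobase used the exon lengths in the file. No test across replicates was possible. The procedure was tested on simulated Poisson counts, which hold the counting error that the intervals assume. The simulation had no variation between pools or mice, so it does not stand in for replicates. Exon overlaps came from GENCODE M21.

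Besides the 10 genes, 19 lists were used; of the 199 symbols in all, 1 was not in the file. Genes were named by a rule: in each list the 3 with the largest log2 fold change against Ctrl among those with at least 50 counts in 1 library, given here for the endothelial lists; and the 10 with the nearest profile. The genes and lists were chosen with earlier results of these data known. Alternatives were DESeq2 1.42.0 size factors, library size alone, no filter, at least 50 counts in 1 library, a prior count of 0.5, a 1.5-fold limit, sums without the most abundant gene, and a minimum of 20 counts in the profile search.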

Additional observations from a re-analysis of the deposited data

How the results depend on the processing

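The medians and sums of the 10 genes kept their direction under the alternatives run, except for sFD17 against Ctrl. There the sum was 0.929 under library size alone (1.08 with TMM), and the median was −0.19 under library size alone and −0.01 without a filter (0.03 with TMM). With TMM the sums were 1.33 for FR17 against Ctrl and 1.34 for sFD17 against TP5. For FR17 they were 1.64 against TP5 and 1.23 against sFD17. Under library size alone these sums were 1.57, 1.11, 1.88 and 1.69 in the same order. The medians were then 0.73 for FR17 against Ctrl and 0.83 for FR17 against sFD17, and the genes at least 2-fold higher were 2 and 4 in these comparisons, against 6.67% and 25.7% of all genes, with 1 gene at least 2-fold lower in sFD17 than in Ctrl, against 9.37%. Without a filter on low counts, which moves the TMM factors, the sums were 1.40 for FR17 against Ctrl, 1.73 against TP5 and 1.33 against sFD17. Without Pecam1 the sum for TP5 against Ctrl was 0.720, where it was 0.807 with Pecam1. Those for sFD17 and FR17 against TP5 were then 1.51 and 1.89, where they were 1.34 and 1.64. With a 1.5-fold limit, 7 genes were lower in TP5 than in Ctrl (11.8% of all genes), 1 was lower in sFD17 than in Ctrl (15.6%) and 3 were higher in FR17 than in Ctrl (11.01%), and 6 were higher in sFD17 than in TP5 (15.4%) and 4 higher in FR17 than in sFD17 (24.7%). For single genes, FR17 against Ctrl kept its direction under every scaling and filter tried, with ratios from 1.11 to 2.08. Against Ctrl, the ratios that changed sides of 1 were Vwf in TP5 and Cdh5 and Pecam1 in sFD17 under library size alone, and Egfl7 and Calcrl in sFD17 under other settings. Between peptides, Tek in FR17 against sFD17 and Calcrl in sFD17 against TP5 changed sides under library size alone, to 1.10 and 0.860, and Pecam1 in sFD17 against TP5 and Cdh5 and Vwf in FR17 against sFD17 did so under DESeq2 size factors. With at least 50 counts in 1 library, 2.30% of all genes were at least 2-fold lower in TP5 than in Ctrl, and 4.40% higher in FR17 than in TP5. The cause of these shifts was not tested. No paired analysis was possible because each group has 1 library. The low counts of Emcn, 13 to 74 per library, limit its precision.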
